A study of Mus musculus with 6 samples.

Results

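The nuclei described here were taken as somatostatin interneurons from single-nucleus RNA sequencing of mouse brain. They were chosen by a gate on 5 genes, applied to all 6 libraries. A nucleus was a member if it held at least 500 UMIs (unique molecular identifiers, each marking 1 captured RNA molecule), at least 300 detected genes and at most 5% mitochondrial UMIs. It also had to hold at least 2 UMIs of Gad1 and Gad2 together, at least 3 UMIs of Sst, 0 of Vip and at most 1 of Slc17a7. The gate selected 526 of the 77421 nuclei that passed the quality limits, which is 0.679% of them, out of 96252 barcodes in all. Among the 4082 GABA nuclei, which met the limits for Gad1, Gad2 and Slc17a7, members made up 12.9%.

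The study compared floxed human APOE knock-in mice with and without a P301S tau transgene, all B6 mice aged 9 months, with 1 library in each of 6 groups. FE3 mice carried APOE3 fl/fl and FE4 mice APOE4 fl/fl, both untreated. TAFE3 mice carried P301S, APOE3 fl/fl and Aldh1la1CreERT, TAFE4 mice carried P301S, APOE4 fl/fl and Aldh1la1CreERT, and each was given oil or tamoxifen, which makes the libraries TAFE3_oil, TAFE3_tam, TAFE4_oil and TAFE4_tam. All groups therefore carried floxed human APOE. P301S, Cre and oil came together, so their parts in any difference between TAFE and FE libraries cannot be told apart, and the same holds for tamoxifen and deletion of APOE. The labels spell the inducible Cre Aldh1la1CreERT, taken here as driven by the astrocyte gene Aldh1l1. The promoter that drives the tau transgene and the number of animals per library are not given in the labels. The titles name hippocampus, the protocol the left hemisphere, and the tissue label nuclei of brain.

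Somatostatin interneurons are inhibitory neurons that release GABA together with the peptide somatostatin. They arise in the medial ganglionic eminence, as parvalbumin interneurons do, under the transcription factors Lhx6, Sox6 and Satb1. In hippocampus and cortex many of them send axons to the distal dendrites of pyramidal neurons, as oriens-lacunosum moleculare and Martinotti cells do, and others project over long distances and make nitric oxide.

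Library totals ran from 39050503 to 49083723 UMIs, and the members of a library together held between 169755 UMIs in FE3 and 490462 in TAFE4_tam. Members numbered 44 in FE3, 83 in FE4, 73 for TAFE3_oil, 104 for TAFE3_tam, 108 for TAFE4_oil and 114 for TAFE4_tam, with median UMIs per nucleus between 3550 in FE3 and 4375 in FE4. The median mitochondrial share among members was 0.435% in FE4 and 0.566% in TAFE4_tam, and between 1.39% and 2.05% in the other libraries. Of all barcodes, 1067 occurred in at least 2 libraries, and no barcode was a member in more than 1. The libraries also differed in the makeup of their excitatory nuclei: C1ql2, a dentate granule marker, was detected in 23.1% of them in FE3 and 22.7% in FE4 but in 6.90% to 11.2% in TAFE libraries. Rorb and Cux2, markers of upper cortical layers, were at 42.2 and 10.4 UMIs for every 1000000 UMIs of the same nuclei (CPM) in FE3, 62.2 and 11.4 in FE4, 136.5 and 59.2 for TAFE3_oil, 42.6 and 34.3 for TAFE3_tam, 166.3 and 76.7 for TAFE4_oil and 48.85 and 45.7 for TAFE4_tam. Fibcd1, a marker of hippocampal CA1, was detected in 20.04% and 20.3% of excitatory nuclei in FE3 and FE4, 8.49% and 4.80% for the oil libraries TAFE3_oil and TAFE4_oil and 17.3% and 18.2% for the tamoxifen libraries TAFE3_tam and TAFE4_tam. C1ql2 and Cux2 thus separated FE from TAFE libraries, and Rorb and Fibcd1 set the oil libraries apart from the rest. Whether these differences came from the tissue sampled or from genotype or treatment was not tested, nor was their part in any result on members.

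The Sst count that admitted a member had a median of 8 UMIs (quartiles 5 and 12) and reached 266 in 1 nucleus of TAFE3_oil. Just inside the limit, 77 members held exactly 3 Sst UMIs. Just outside it, 150 otherwise qualifying nuclei held 2 and 520 held 1. A further 73 GABA nuclei with at least 3 Sst UMIs were left out because Vip was detected. They numbered 2 in FE3, 3 in FE4, 14 for TAFE3_oil, 11 for TAFE3_tam, 24 for TAFE4_oil and 19 for TAFE4_tam. The part of this limit in the member shares given below was not tested. Summed over members, Sst ran from 2198 CPM in FE4 and 2212 CPM in TAFE4_oil through 2341 in TAFE4_tam, 2488 in TAFE3_tam and 2663 in FE3 to 2981 in TAFE3_oil, a level set by the gate. Without the nucleus with 266 UMIs the TAFE3_oil level was 2175 CPM.

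Lhx6, the lineage marker that the gate did not use, bore on the label. It was detected in 32.1% of members (exact 95% interval 28.2 to 36.3%, from 28.9% in TAFE3_tam to 35.2% in TAFE4_oil). In GABA nuclei with no Sst UMI, the share was 15.6%, and in excitatory nuclei it was 0.668%. Satb1 was found in 62.9% of members and Sox6 in 23%. Gad1 was detected in 401 members, Gad2 in 433 and both in 308. Slc17a7, the vesicular glutamate transporter of excitatory neurons, was present at its permitted 1 UMI in 125 members. Sst RNA was also found outside its cells: at least 1 UMI occurred in 6.03% to 22.2% of excitatory nuclei, whose median depth was 3486 to 4307 UMIs, whereas 3 UMIs or more occurred in 0.101% to 0.894% of them.

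The upstream sequences of 3 peptide genes are shown: Sst because it defines the gate, and Cort and Npy because their RNAs are compared between gates in the results that follow. Each is the 250 bases before the RefSeq start on build GRCm38.p6, 5′ to 3′ on the gene's strand, at chr16:23890845-23891094 (minus strand) for Sst, chr4:149126764-149127013 (minus) for Cort and chr6:49822460-49822709 (plus) for Npy. Capitals mark the palindromic cyclic AMP response element TGACGTCA, through which the factor Creb is known to act on Sst.
Sst: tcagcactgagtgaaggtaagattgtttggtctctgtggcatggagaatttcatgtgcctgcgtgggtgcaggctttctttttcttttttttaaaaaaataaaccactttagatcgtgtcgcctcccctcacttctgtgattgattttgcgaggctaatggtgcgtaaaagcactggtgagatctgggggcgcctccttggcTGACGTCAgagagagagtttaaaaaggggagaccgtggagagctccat
Cort: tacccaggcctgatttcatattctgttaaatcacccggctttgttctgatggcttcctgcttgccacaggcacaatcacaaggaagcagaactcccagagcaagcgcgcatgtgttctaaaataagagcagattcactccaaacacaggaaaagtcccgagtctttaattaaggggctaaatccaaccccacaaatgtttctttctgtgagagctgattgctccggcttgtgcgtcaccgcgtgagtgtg
Npy: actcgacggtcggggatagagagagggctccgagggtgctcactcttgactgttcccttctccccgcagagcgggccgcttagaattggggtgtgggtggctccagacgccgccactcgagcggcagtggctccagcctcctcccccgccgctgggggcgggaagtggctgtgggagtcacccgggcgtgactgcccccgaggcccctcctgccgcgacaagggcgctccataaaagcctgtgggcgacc
The motif begins 48 bases before the Sst start and these letters are not in the Cort or Npy windows. Over RefSeq promoters of the same length, 508 of 32851, or 1.55%, held the motif. The motif is its own reverse complement, so both strands are covered by 1 search.

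Members made up between 9.58% and 16.1% of the GABA nuclei of a library. The share was 12.9% in FE3 (exact Clopper-Pearson 95% interval 9.51 to 16.9%), 16.1% in FE4 (13.0 to 19.5%), 11.99% for TAFE3_oil (9.51 to 14.8%), 14.8% for TAFE3_tam (12.2 to 17.6%), 9.58% for TAFE4_oil (7.93 to 11.4%) and 14.5% for TAFE4_tam (12.1 to 17.2%). TAFE4_oil was lowest, and its interval lay below those of FE4, TAFE3_tam and TAFE4_tam and overlapped those of FE3 and TAFE3_oil. These intervals cover counting error only, and with 1 library in a group no test between genotypes or treatments was made.

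The order of the libraries depended on how Sst was counted. With every GABA nucleus thinned to 1500 UMIs, at least 1 Sst UMI was found in 20.8% in FE3, 22.4% in FE4, 24.3% for TAFE3_oil, 23.9% for TAFE3_tam, 23.7% for TAFE4_oil and 24.8% for TAFE4_tam, shares whose intervals all overlapped. Before thinning these shares were 30.5% to 36.9%, and 5 to 45 nuclei a library were too shallow to be used. In thinned excitatory nuclei the share was 1.94% in FE4 and 9.21% in TAFE4_oil, the ends of the range. Over all GABA nuclei together, Sst stood at 430.6 CPM in FE3, 437.7 in FE4, 541.5 for TAFE3_oil, 492.3 for TAFE3_tam, 368.4 for TAFE4_oil and 449.9 for TAFE4_tam.

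**Figure D1:**
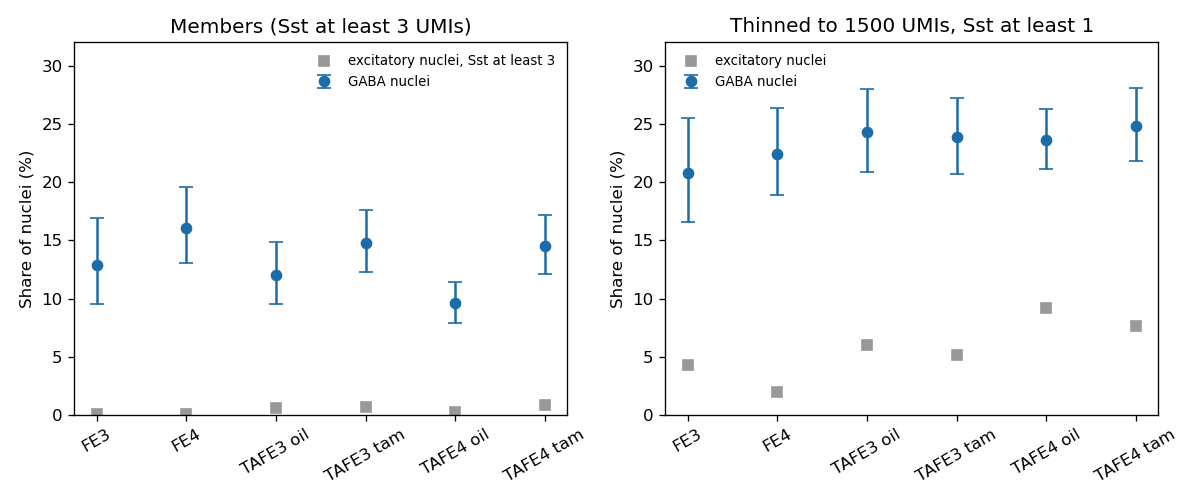
Share of GABA nuclei (percent, circles with exact 95% intervals for counting error) that met the somatostatin gate (left) or held at least 1 Sst UMI once thinned to 1500 UMIs (right), 1 library per group; grey squares give excitatory nuclei with at least 3 Sst UMIs (left) or at least 1 once thinned (right). On the left, the TAFE4_oil share of 9.58% was the lowest and the FE4 share of 16.1% the highest.

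The RNA of members was compared with that of GABA nuclei without an Sst UMI (2686 nuclei) from the same libraries. UMIs were summed per library and gate and tested with edgeR's quasi-likelihood test with library as a block, so that the 6 libraries, which differ in genotype and treatment, served as replicates. Of 8496 genes tested beside the 5 gate genes, 458 were higher in members (5.39%) and 474 lower (5.58%) at a Benjamini-Hochberg adjusted p under 0.05. Members were selected on Sst count and were deeper, with medians of 3550 to 4375 UMIs against 3208 to 3636 in the reference nuclei, and the part of depth was not tested. P-values measure the spread of the difference between the gates over these libraries. With members limited to nuclei without a microglia marker UMI, 183 of 7552 genes tested were higher and 206 lower. DESeq2, on the genes of the main fit, called 248 and 237.

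Among the genes most raised in members were those of peptide signalling. Crhbp, which encodes the binding protein of corticotropin-releasing hormone, stood at 218, 194, 360, 237, 178 and 202 CPM across the libraries FE3, FE4, TAFE3_oil, TAFE3_tam, TAFE4_oil and TAFE4_tam, against 19.3 to 38.1 CPM in the reference. No library's members came near the reference range, and the log2 difference was 3.03 ± 0.14 (SE, n = 6 libraries, edgeR adjusted p = 2.7e-23). Npy, which encodes neuropeptide Y, an inhibitory peptide released with GABA, was at 442, 701, 1674, 832, 816 and 844 CPM in the same order, against 80.8 to 290 CPM (log2 difference 2.57 ± 0.09, n = 6 libraries, edgeR adjusted p = 4.0e-28). TAFE3_oil was highest and FE3 lowest, and single nuclei weighed in both: 1 nucleus gave 160 of the 535 Npy UMIs in TAFE3_oil (1187 CPM without it) and 1 gave 43 of 75 in FE3 (192 CPM without it). Cort encodes cortistatin, a peptide close to somatostatin that binds the same receptors. It reached 165, 108, 172, 57.0, 59.4 and 83.6 CPM in the same order (log2 difference 2.10 ± 0.22, n = 6 libraries, edgeR adjusted p = 9.3e-11). In FE3, 21 of its 28 UMIs came from 1 nucleus.

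Other strongly raised genes act at the membrane and synapse. Elfn1, a postsynaptic adhesion protein that recruits presynaptic metabotropic glutamate receptors to synapses onto these cells, stood at 103 to 133 CPM in members and 8.68 to 27.3 CPM in the reference (log2 difference 2.60). Grin3a, an NMDA receptor subunit, was at 130 to 243 CPM against 28.4 to 49.4 (2.21). Trpc6, a cation channel opened by diacylglycerol, was at 35.2 to 88.4 CPM against 4.27 to 8.68 (3.00). For each of these 3 genes the lowest member library exceeded the highest reference library. Trhde, which degrades thyrotropin-releasing hormone, had a log2 difference of 1.95 and Rbp4, a retinol carrier, 1.97. Differences were also called for the transcriptional regulator Eya1 (2.43) and for Iqcj (2.28) and Olfm3 (2.22). Each of these genes and of the peptide signalling genes above was higher in 6 of 6 libraries.

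Several of the most reduced genes, among them Adarb2 and Lamp5, mark interneurons from the caudal ganglionic eminence. Adarb2 stood at 2.63 to 10.97 CPM in members and 110 to 165 CPM in the reference (log2 difference −4.47 ± 0.21, n = 6 libraries, edgeR adjusted p = 8.9e-23). Sema3c, a secreted guidance cue, was lower by a log2 difference of −3.97, Lamp5 by −2.95, the orexin receptor Hcrtr2 by −2.83, Rgs12 by −2.80, the chemokine Cxcl14 by −2.66, Ndnf by −2.64 and the receptor kinase Kit by −2.60. All 8 were lower in 6 of 6 libraries. The reference holds Lamp5, Vip and Cck types, so these values describe the contrast between types.

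**Figure D2:**
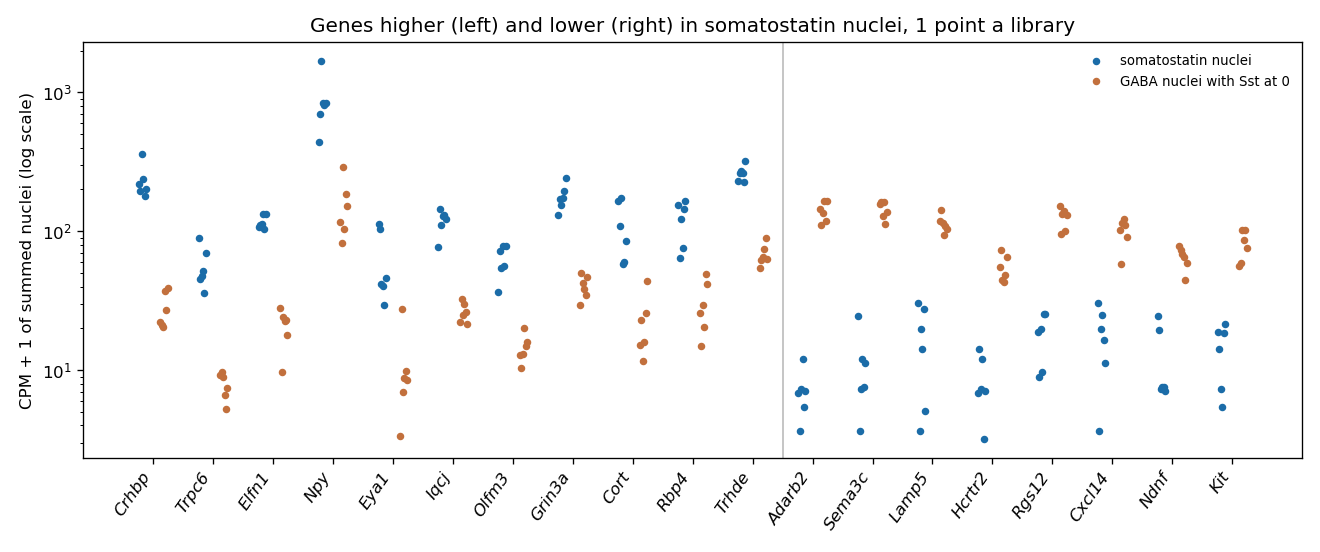
Levels (CPM + 1 of summed nuclei, log axis) of genes named for the contrast of members (blue) with GABA nuclei without Sst (orange), 1 point per library, with genes higher in members left of the line and lower ones right of it. The gates do not overlap for Crhbp (178 to 360 against 19.3 to 38.1 CPM) or Adarb2 (2.63 to 10.97 against 110 to 165 CPM).

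Gene lists showed which functions differed. Of 28 genes of somatostatin cell identity, 27 were tested, 19 were higher and 5 lower, with a median log2 difference of 0.88 against 0.01 over all genes tested. Beside the genes above, Satb1 (1.64), Sox6 (1.56), Synpr (1.31) and Lhx6 (0.88) were higher. The 5 lower were the homeobox gene Dlx6 (−0.97) and its antisense transcript Dlx6os1 (−1.97), Fam19a1 (−0.44), Npas1 (−0.44) and the nociceptin precursor Pnoc (−0.53). The calls of Fam19a1, Npas1 and Pnoc were lost by DESeq2 and when 1 library was left out, which was TAFE4_oil for Fam19a1, any of the TAFE libraries for Npas1 and TAFE3_oil, TAFE3_tam or TAFE4_tam for Pnoc. Dlx6 and Dlx6os1 overlap in the genome, and the assignment of their reads cannot be checked here. Of 22 genes for peptides and their handling, 16 were tested, 9 were higher and 3 lower. Granule proteins were among those higher, with Vgf at a log2 difference of 1.36, Scg2 at 0.74, Scg5 at 0.46 and Chga at 0.43, as was the amidating enzyme Pam at 0.50. Cck (−1.36), Penk (−1.50) and the convertase Pcsk2 (−0.50) were lower.

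Receptor lists divided. Of 22 ionotropic and metabotropic glutamate receptor genes, 18 were tested, 9 were higher and 1 lower, with a median log2 difference of 0.22. The kainate receptor subunits Grik3 and Grik1 were higher by 1.50 and 0.90, the AMPA subunits Gria3 and Gria1 by 0.80 and 0.74, and Grm7 by 0.76. The calls of Grik1 and Grm7 were lost in members without a microglia marker UMI. Grin2a was the lower member (−0.24), a call kept in 8 of 17 alternatives, and lost by DESeq2 and without FE3, FE4 or TAFE4_tam, among others. Of 14 GABA receptor genes, all tested, 1 was higher (Gabrg1, 1.00, lost by DESeq2 and without TAFE4_oil or TAFE4_tam) and 6 lower, among them Gabrg3 (−1.27), the extrasynaptic subunit Gabrd (−1.10) and Gabrb2 (−0.73). Of 27 ion channel genes tested, 3 were higher, Kcnmb2 (0.89), Kcnc2 (0.83) and Cacna1a (0.27), and 8 lower, among them Kcnip4 (−1.02) and Kcnj6 (−1.08). The call of Cacna1a was kept in 11 of 17 alternatives, and lost by DESeq2 and without the library block, among others. That of Kcnj6 was lost in members without a microglia marker UMI. None of the 5 somatostatin receptor genes was abundant enough to be tested, and Sstr1 was detected in 6.08% of members, Sstr2 in 2.09%, Sstr3 in 1.90% and Sstr4 in 0.190%.

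Set against parvalbumin nuclei (152 nuclei over the 6 libraries, between 10 in FE3 and 42 in TAFE4_tam), the class of the same origin, 262 of 3540 genes tested were higher in members (7.40%) and 266 lower (7.51%). Without TAFE4_tam the lower genes numbered 158 of 2903 tested. Npy had a log2 difference of 3.83 ± 0.19 (n = 6 libraries, edgeR adjusted p = 3.1e-23), from 442 to 1674 CPM in members against 8.59 to 104 CPM. Reln, the extracellular glycoprotein reelin, was at 93.8 to 336 CPM against 0 to 23.8 CPM (fitted log2 difference 3.70 ± 0.32, n = 6 libraries, edgeR adjusted p = 1.1e-13). Both ranges lay wholly above those of parvalbumin nuclei. Grin3a (3.15), Elfn1 (3.101), the mannosidase Man1a (2.96), Synpr (2.65), Lrtm1 (2.44) and Zcchc12 (2.36) followed. Parvalbumin libraries at 0 CPM enter the fits of Reln, Grin3a, Elfn1, Man1a, Lrtm1 and Zcchc12, whose sizes therefore depend on the prior count and are no bounds.

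Syt2 was among the genes at lower levels in members than in parvalbumin nuclei. This calcium sensor of fast synchronous release was at 0 to 17.6 CPM in members and 103 to 158 CPM in parvalbumin nuclei (fitted log2 difference −4.18 ± 0.33, n = 6 libraries, edgeR adjusted p = 9.5e-15). Of all genes tested against parvalbumin nuclei, 14.9% were called, beside 23.5% of vesicle release, 61.1% of channel and 60% of synaptic organizer genes tested. Of 17 genes of vesicle release tested, 3 were lower, 1 higher and 13 not called. Of 18 channel genes tested, 6 were lower and 5 higher. The fast delayed rectifier Kcnc1 (−1.42), Kcna1 (−1.43) and the sodium channel Scn8a (−0.60) were among those lower, and the T-type calcium channel Cacna1g (1.31), the A-type channel Kcnd3 (1.23), Cacna1e (1.16) and Scn3a (0.96) were higher. The calls of Kcnd3 and Scn3a were lost by DESeq2, that of Scn3a also with Sst at least 5 and without FE4 or TAFE4_oil. That of Scn8a was lost without the filter on low counts and in members without a microglia marker UMI. Of 23 synaptic organizer genes, 15 were tested, 4 higher and 5 lower, with Nrxn2 (0.59), Nrxn3 (0.56) and Elfn1 among those higher, and Cntnap4 (−1.62) and Cntnap5a (−1.14) among those lower. Also lower were Col16a1 (−3.76), the hyaluronan-degrading Cemip (−2.88), the transcription factor Trps1 (−2.30), Tmem108 (−2.19), the serotonin receptor Htr1f (−2.10) and Tac1, the substance P precursor (−1.42, though lower in 4 of 6 libraries and not called by DESeq2). Identity genes shared by both classes were not called: the log2 difference was 0.40 for Lhx6, 0.24 for Sox6, 0.30 for Satb1 and 0.63 for Cort (edgeR adjusted p of 0.28, 0.61, 0.16 and 0.19).

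Members were not uniform, and marker genes occurred together in subsets. Shares here are of nuclei with at least 1 UMI, are not tested, and carry exact 95% intervals; nuclei of 1 library share its background RNA. Nos1, neuronal nitric oxide synthase, was detected in 41 members (7.80%), and in 0 of 44 in FE3. For a count of 0 a floor of 3 nuclei is given in place of an exact interval, which is 6.82% in FE3. Nos1 was found in 3 nuclei in FE4, 10 for TAFE3_oil, 7 for TAFE3_tam, 14 for TAFE4_oil and 7 for TAFE4_tam. Chodl, the marker of long-range projecting cells, was found in 31.7% of Nos1-positive members (18.1 to 48.1%) and in 0.412% of the rest (0.04998 to 1.48%). Npy was found in 78.0% and 50.3%, and Ndst4, a heparan sulfate enzyme, in 36.6% and 5.36%. Reln was the reverse, in 4.88% and 42.1%. Median depths were 3752 and 3876 UMIs. Of the 15 Chodl-positive members, 86.7% held Nos1, 93.3% Npy and 86.7% Crhbp, and 0 held Reln.

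Reln-positive members (206, or 39.2%) formed another subset. They held Npas1 in 34.0% (27.5 to 40.9%) against 10.9% of the rest (7.74 to 14.9%), higher in 6 of 6 libraries. Cort was found in 5.83% of them and 20.9% of the rest, lower in 6 of 6 libraries. Their median depth was 4146 UMIs against 3720. Cort-positive members (79, or 15.0%) held Tac1 in 20.2% (12.04 to 30.8%) against 7.61%, higher in 6 of 6 libraries, with median depths of 4382 and 3838 UMIs. Cbln4, a synaptic organizer of Martinotti cells, marked 59 members, of which 55.9% held Elfn1 against 33.4% of the rest and 3.39% held Npas1 against 22.1%, with median depths of 4627 and 3816 UMIs. Chrna2, the nicotinic subunit that marks oriens-lacunosum moleculare cells, was detected in 0 of 526 members, where the floor of 3 nuclei is a share of 0.570%.

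**Figure D3:**
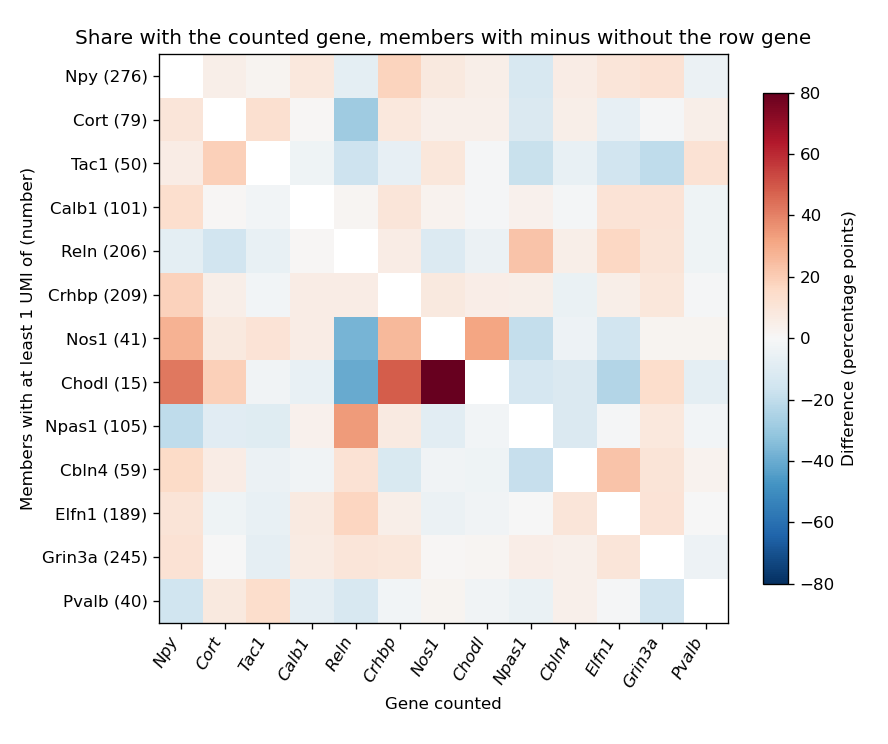
Difference (percentage points, colour) in the share of members with at least 1 UMI of the column gene, between members with and without a UMI of the row gene, pooled over the 6 libraries; numbers beside row genes count the members with a UMI. In the Nos1 row, Chodl was found in 31.7% of Nos1-positive members and 0.412% of the rest, and Reln in 4.88% and 42.1%.

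Each oil-treated tau library was set against the untreated library with its own APOE allele. The pairs hold different libraries, and each value is a log2 ratio of CPM with an exact conditional binomial 95% interval for counting error. Among 4249 genes with enough UMIs in both pairs, 47 were at least 2-fold higher in both (1.11%) and 3 at least 2-fold lower in both (0.0706%). The median log2 ratio over all genes was −0.11 in the APOE3 pair and 0.21 in the APOE4 pair. With the UMI limit raised to at least 100, 1 of 486 genes was higher and 0 lower. Named genes were picked by their ratios in both pairs, so a lack of overlap between FE and TAFE libraries follows in part from that choice. The share of all genes without overlap was not computed.

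Genes of MHC class I were among those at higher levels in the tau libraries. H2-K1, a classical class I heavy chain, gave 1 UMI in FE3, 3 in FE4, 36 for TAFE3_oil, 19 for TAFE3_tam, 58 for TAFE4_oil and 57 for TAFE4_tam, or 5.89, 7.88, 113, 41.7, 128 and 116 CPM. All TAFE libraries lay above both FE libraries. The log2 ratio was 4.26 (1.69 to 9.60) in the APOE3 pair and 4.02 (2.40 to 6.34) in the APOE4 pair. H2-D1 gave 10, 20, 67, 41, 91 and 65 UMIs in the same library order, with log2 ratios of 1.83 (0.86 to 2.96) and 1.93 (1.22 to 2.71), and the groups again did not overlap. B2m, the class I light chain, gave 2, 7, 25, 16, 34 and 16 UMIs. In TAFE3_oil the same nucleus, of 7327 UMIs, held 15 of the 36 H2-K1, 27 of the 67 H2-D1 and 11 of the 25 B2m UMIs, with 5 of Sst. It also held 53 UMIs of the vascular marker list, the most of any TAFE3_oil member, among them 27 of the endothelial gene Cldn5, and 1 of the microglia list. Without it the TAFE3_oil levels of H2-K1 and H2-D1 were 67.2 and 128 CPM, and the APOE3-pair ratios were 3.51 (0.88 to 8.88) and 1.12 (0.10 to 2.29). The APOE3-pair ratio of B2m was 2.73 (0.73 to 5.85) with that nucleus and 1.93 (−0.19 to 5.11) without it, an interval that included 0. H2-K1 was also higher in TAFE than in FE libraries in GABA nuclei without Sst (log2 ratios 1.27 and 2.20), in excitatory nuclei (17.8 and 23.6 CPM in FE, 52.0 to 88.3 in TAFE) and in oligodendrocyte nuclei (40.9 and 54.0 CPM in FE, 165 to 330 in TAFE).

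RNA of microglia was also higher in every TAFE library than in both FE libraries. H2-K1 stood at 128 CPM in TAFE4_oil and 116 in TAFE4_tam, libraries that differed more in microglia RNA. The 10 listed microglia markers, all of them detected, summed in members to 159 CPM in FE3, 226 in FE4, 494 for TAFE3_oil, 298 for TAFE3_tam, 897 for TAFE4_oil and 487 for TAFE4_tam, against 168 to 755 CPM in the other GABA nuclei and 136 to 610 in excitatory nuclei. Of the defining markers, Csf1r was detected in 6.84% of members and Cx3cr1 in 3.80%. In members without any UMI of the microglia list, H2-K1 gave 1 UMI in FE3, 2 in FE4 and 3 in each of the oil-treated tau libraries, too few for a ratio, and H2-D1 gave log2 ratios of 1.06 (−1.01 to 3.33) and 0.92 (−0.95 to 2.57). In those members 7 of 1140 genes tested were at least 2-fold higher in both pairs and 15 lower. The members numbered 25 in FE3, 54 in FE4, 17 for TAFE3_oil and 13 for TAFE4_oil. The part of microglial RNA in the class I values was not tested beyond this.

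The other named genes at higher levels had varied roles. Neat1, the long noncoding RNA that scaffolds paraspeckles, gave 7, 37, 63, 53, 122 and 44 UMIs across the libraries FE3, FE4, TAFE3_oil, TAFE3_tam, TAFE4_oil and TAFE4_tam, with log2 ratios of 2.26 (1.13 to 3.63) and 1.47 (0.92 to 2.04). The TAFE4_tam level of 89.7 CPM fell below the FE4 level of 97.2 CPM, so the groups overlapped. In FE4, 1 nucleus held 19 of the 37 UMIs, and without it FE4 stood at 48.3 CPM, below every TAFE library, and the APOE4-pair ratio was 2.47 (1.75 to 3.28). In members without microglia marker UMIs the Neat1 ratios were 3.70 and 1.96, the first resting on at most 7 UMIs in FE3. Rab14, a GTPase of endosomal recycling, gave 1.56 and 1.74, the snoRNP and spliceosome protein gene Nhp2l1 1.41 and 1.74, Zfr 1.89 and 1.40, Rhoa 1.26 and 2.16 and Ubl5 1.26 and 1.87. The APOE3-pair intervals of Nhp2l1, Rhoa and Ubl5 included 0.

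The named genes with lower levels included markers of the subsets above. C1ql3, a secreted synaptic organizer, gave 34, 70, 13, 38, 26 and 33 UMIs in the same library order, or 200, 184, 40.7, 83.4, 57.2 and 67.3 CPM. Both FE libraries exceeded every TAFE library, with log2 ratios of −2.30 (−3.35 to −1.34) and −1.69 (−2.39 to −1.02). In the other GABA nuclei its ratios were −0.87 and −1.46. Reln gave 336, 234, 93.8, 140, 125 and 237 CPM, with ratios of −1.84 (−2.53 to −1.18) and −0.90 (−1.40 to −0.40), and in the other GABA nuclei of −0.09 and −0.37. TAFE4_tam stood just above FE4, so the groups overlapped. The share of members with a Reln UMI was 56.8%, 47.0%, 28.8%, 34.6%, 27.8% and 48.2%. Npas1, a transcription factor, had ratios of −2.07 and −0.84, and Eya1 of −1.46 and −1.84, with no overlap of FE and TAFE libraries. This lack of overlap, like that of C1ql3, follows in part from how the genes were picked. Slc2a8, Lrrtm4, Ncoa3 and Mgat4c had ratios between −0.82 and −1.10, and the APOE3-pair interval of Ncoa3 included 0. Among excitatory nuclei, C1ql2 and Cux2 also separated FE from TAFE libraries, while Rorb in the tamoxifen libraries lay within its FE range, as given above. Whether sampling of regions moved the Reln and Npas1 subset was not tested.

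**Figure D4:**
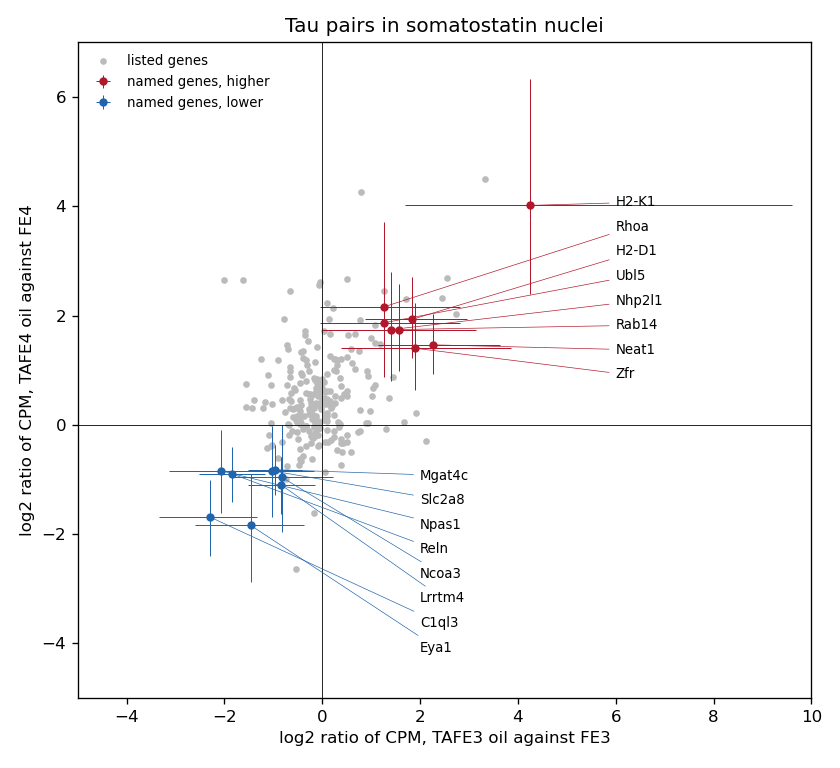
Log2 ratio of CPM in members, TAFE3_oil against FE3 (horizontal) and TAFE4_oil against FE4 (vertical), for listed genes (grey) and named genes with exact 95% intervals. H2-K1 lies at 4.26 and 4.02, and C1ql3 at −2.30 and −1.69.

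The gene lists separated the pairs. For nuclear-encoded oxidative phosphorylation genes, the median log2 ratio was −0.04 in the APOE3 pair (18 higher, 20 lower) and 1.15 in the APOE4 pair (37 higher, 1 lower). For heat shock genes it was 0.05 and 0.91, with 17 of 17 higher in the APOE4 pair. The median over all genes was 0.21 in the APOE4 pair, so more genes were higher than lower there whatever the list. Hsp90aa1, a cytosolic chaperone, gave 48, 51, 101, 125, 194 and 121 UMIs in the library order above, and Hspa8 gave 73, 112, 163, 257, 308 and 240. Cytoplasmic RNA moved alike: the median was 1.72 for mitochondrially encoded genes and 1.12 for ribosomal protein genes in the APOE4 pair, and −0.34 and −0.08 in the APOE3 pair. FE4 was the library with the lowest mitochondrial share. In the other GABA nuclei the APOE4 pair gave 0.93 for oxidative phosphorylation, 0.73 for heat shock and 1.28 for mitochondrially encoded genes. The part of cytoplasmic RNA was not tested. Identity genes had medians of −0.33 and 0.00, peptide genes −0.24 and 0.32, channel genes −0.23 and 0.22 and glutamate receptor genes −0.21 and −0.08, beside −0.11 and 0.21 over all genes.

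**Figure D5:**
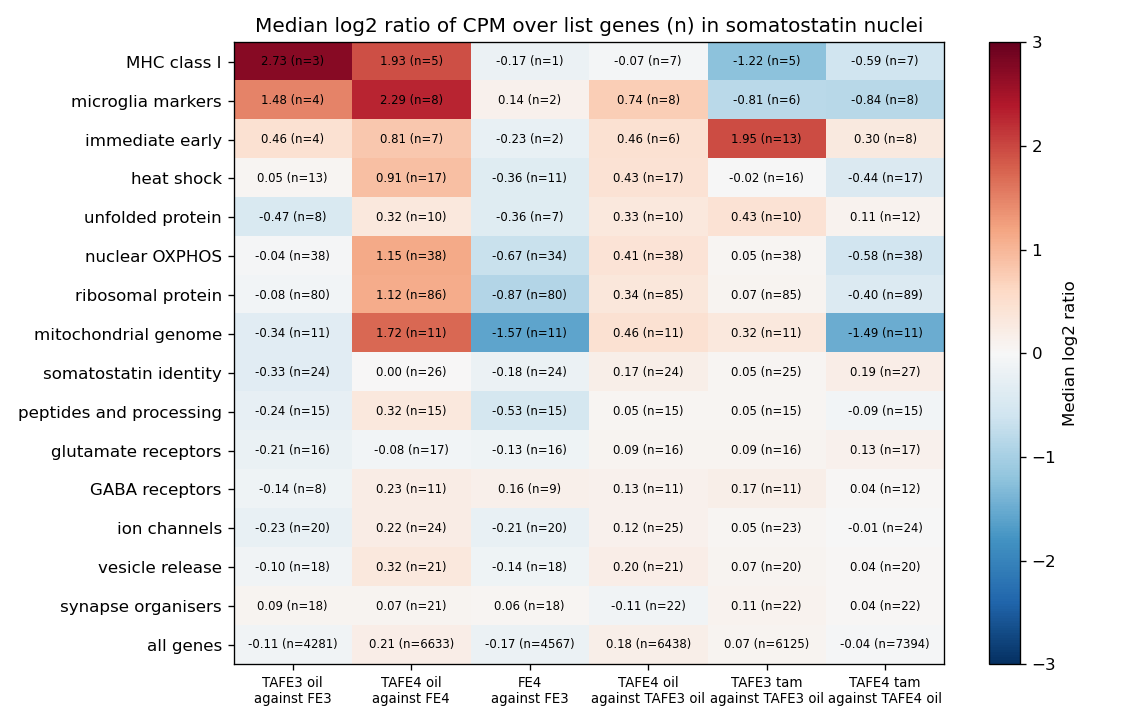
Median log2 ratio of gene lists in members for the pairs of libraries, beside the median of all genes tested. Oxidative phosphorylation reaches 1.15 for TAFE4_oil against FE4 and −0.04 for TAFE3_oil against FE3, and immediate early genes reach 1.95 for TAFE3_tam against TAFE3_oil. Genes enter a list median by their UMIs summed over both libraries, so a gene high in 1 library can enter through it.

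Tamoxifen libraries were compared with the oil library that shared their APOE allele, and the oil libraries are shared with the tau pairs. Of 5964 genes, 6 were at least 2-fold higher in both pairs (0.101%) and 10 lower (0.168%). In members without microglia marker UMIs the numbers were 10 and 0, with at least 100 UMIs 0 and 0, and the lower genes numbered 3 with Sst at least 2 and 6 with Sst at least 5. Immediate early genes, which neurons switch on with activity, stood out in TAFE3_tam. Arc, a regulator of synaptic AMPA receptors, gave 1, 6, 5, 46, 5 and 5 UMIs across the libraries FE3, FE4, TAFE3_oil, TAFE3_tam, TAFE4_oil and TAFE4_tam, with a log2 ratio of TAFE3_tam against TAFE3_oil of 2.69 (1.36 to 4.38). Junb, an AP-1 subunit, gave 8, 17, 15, 86, 35 and 30 UMIs and a ratio of 2.01 (1.21 to 2.91). Btg2, Egr1, Fos and Npas4 had ratios of 1.86, 1.95, 3.88 and 3.74, the last pair resting on 1 UMI in TAFE3_oil. TAFE3_tam held the most UMIs of each of these genes, although in CPM Npas4 was as high in FE3 (47.1 against 41.7).

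These UMIs came from few nuclei. Among 7 of these genes (Arc, Fos, Fosb, Junb, Btg2, Egr1 and Npas4), 11 of 104 TAFE3_tam members, or 10.6%, held at least 3, against 0 to 3 nuclei (0% to 2.63%) in the other libraries. Those 11 held 200 of the 258 UMIs of the 7 genes, and 1 nucleus held 52. Over the whole list, 13 genes were used in TAFE3_tam against TAFE3_oil, 11 were higher and 2 lower, with a median of 1.95 beside 0.07 over all genes, and in TAFE4_tam against TAFE4_oil the median was 0.30. In the other GABA nuclei the TAFE3_tam median was 0.41.

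The genes named for tamoxifen were close to the counting limit. Fbxl12 (1.27 and 0.89), Scaf11 (1.07 and 0.81), Cep350 (0.81 and 0.78) and Wdr45b (0.76 and 1.09) were higher in log2 ratio, in the order APOE3 pair and APOE4 pair, and at least 1 interval of Scaf11, Cep350 and Wdr45b included 0. The lower genes were B2m (−1.16 and −1.20), the GTPase Rap1a (−1.63 and −1.11), the complex I subunit Ndufb4 (−1.10 and −1.33) and Ifitm3 (−3.44 and −1.69), an interferon-induced membrane protein. The APOE3-pair interval of Ndufb4 included 0. In TAFE3_oil the nucleus with vascular RNA described above held 33 of 38 Ifitm3 and 11 of 25 B2m UMIs, and without it the APOE3-pair ratios were −0.55 (−2.67 to 1.57) for Ifitm3 and −0.35 (−1.48 to 0.79) for B2m. In TAFE4_oil 1 nucleus held 15 of 27 Ifitm3 UMIs, and without it the APOE4-pair ratio was −0.56 (−1.98 to 0.82). The summed microglia markers were also lower with tamoxifen, at 298 against 494 CPM in the APOE3 pair and 487 against 897 CPM in the APOE4 pair, and their part in the lower genes was not tested beyond the count above. Human APOE, the floxed gene, was measured in members at 951 CPM for TAFE3_oil, 551 for TAFE3_tam, 2283 for TAFE4_oil and 718 for TAFE4_tam. Excitatory nuclei held 1168, 584, 1796 and 775 CPM and astrocyte nuclei 16650, 5798, 21000 and 4956 CPM in the same order. Members, excitatory and astrocyte nuclei were thus all lower with tamoxifen, and the part of RNA released by astrocytes in the APOE level of members was not tested.

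APOE4 libraries were compared with APOE3 libraries without tau (FE4 against FE3) and with tau and oil (TAFE4_oil against TAFE3_oil), pairs that share their libraries with the tau pairs. Of 4469 genes, 10 were at least 2-fold higher in both (0.224%) and 3 lower (0.0671%). The higher genes numbered 6 with Sst at least 2, 2 without microglia marker UMIs and 0 with at least 100 UMIs, and the lower genes 1 with TMM factors, with glial and vascular UMIs at most 1% or with at least 100 UMIs. Ttr, the transthyretin RNA that choroid plexus makes in abundance, gave 142, 145, 185, 219, 28 and 234 UMIs across the libraries FE3, FE4, TAFE3_oil, TAFE3_tam, TAFE4_oil and TAFE4_tam. TAFE4_oil was the low library, with a log2 ratio of −3.23 (−3.86 to −2.65) against TAFE3_oil, and FE4 against FE3 gave −1.14 (−1.48 to −0.79). The other GABA nuclei gave −3.24 and −0.75 for the same pairs. Stx2, a syntaxin, was higher with ratios of 1.64 (0.13 to 3.61) and 1.30 (0.13 to 2.64), and the clock gene Per3 gave 1.20 and 1.12, the deacetylase Hdac6 1.16 and 1.01 and Snx24 1.07 and 0.94. Tmtc2 (−0.84 and −1.03), Emc4 (−1.17 and −0.84) and Fam213a (−1.23 and −0.75) were lower. At least 1 interval of Per3, Hdac6, Snx24, Tmtc2 and Fam213a included 0, and for Hdac6 and Snx24 both did. Mitochondrially encoded genes had medians of −1.57 and 0.46 in these pairs, and oxidative phosphorylation genes of −0.67 and 0.41, so the pairs differed in sign.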

How the data were processed

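Nuclear RNA was sequenced in 6 libraries, 1 per group. The deposited matrices hold raw UMI counts, which the authors made with Cell Ranger on mm10 per the submitters' processing notes, which also name Seurat. Nuclei had to reach 500 UMIs and 300 genes, with no more than 5% mitochondrial UMIs, and the gates were applied to counts. No doublet caller was run; the limits on Vip and Slc17a7 and stricter gates stood in for one. UMIs were summed per gate and library. Gates were tested with edgeR 4.0.16 (filterByExpr, TMM, quasi-likelihood, library as block), checked on simulated data, with DESeq2 1.42.0 as an alternative. Pairs of libraries have no test: log2 ratios of CPM are given for genes with at least 20 UMIs over both libraries (30 for named genes, with at least 50 CPM), with exact 95% intervals that cover counting error only. Counts of 0 were set to 3. Named genes were the largest differences in the same direction in 6 of 6 libraries or in both pairs, leaving out gate, mitochondrial and ribosomal genes, gene models and, in pairs, markers of other classes, together with members of the lists. The members and gene lists were chosen with earlier results of these data known. Depth limits the pairs: FE3 members held 169755 UMIs. Results on some genes are not reported here.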

Additional observations from a re-analysis of the deposited data

Results flagged for a closer look

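Some listed genes moved past 2-fold in opposite directions in the pairs of 1 comparison; the difference between the pairs was not tested, and the pairs hold 1 library per group. In the tau pairs, APOE3 first, the log2 ratio of Cox7b, a cytochrome oxidase subunit, was −1.25 and 1.20. That of Tac1 was −1.62 and 2.65, with 31 UMIs in FE3, of which 1 nucleus held 19, and 4 in FE4. That of Vtn, the pericyte and liver gene for vitronectin, was −2 and 2.65, with 13 of 17 UMIs in FE3 and 14 of 30 in TAFE4_oil from 1 nucleus each. In the APOE4 pairs, without tau first, the log2 ratio of human APOE was −1.40 and 1.26, and that of Vtn was −3.25 and 1.40. APOE was detected in 79.5% of FE4 members and 100% of TAFE4_oil members. Of the genes compared, 14 of 258 had intervals on opposite sides of 0 in the tau pairs, 4 of 305 in the tamoxifen pairs and 16 of 246 in the APOE4 pairs.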

How the results depend on the processing

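The genes named by rank in the gate contrasts (12 highest and 8 lowest against other GABA nuclei, 8 and 6 against parvalbumin nuclei) kept their direction and an edgeR or DESeq2 adjusted p under 0.05 in each alternative in which they were tested. Of the called list members, 64 of 108 against other GABA nuclei and 25 of 63 against parvalbumin nuclei lost the call in at least 1 alternative, and Nos1 and Syt4 changed sign in 1 each against other GABA nuclei. Against other GABA nuclei, the main fit called 458 genes higher and 474 lower. With mitochondrial UMIs at most 1% these became 150 and 198 of 5325 genes tested, and under the strict gate 10 and 19 of 549. Members without a microglia marker UMI gave 183 and 206 of 7552. Over the genes of the main fit, DESeq2 gave 248 and 237, and the fit without the library block 268 and 275. Without a filter on low counts 742 of 20324 were lower. Against parvalbumin nuclei, 262 and 266 of 3540 became 74 and 75 of 1057 with mitochondrial UMIs at most 1%, with no strict gate value. Members without a microglia marker UMI gave 133 and 112 of 1561, and DESeq2 154 and 131 of 3540. Without the filter on low counts 475 of 17694 were higher. Leaving out 1 library gave 354 to 455 higher and 380 to 481 lower, and 189 to 285 and 158 to 276 against parvalbumin nuclei. The count of 380, of 8530 genes tested, came without TAFE3_tam. Those without TAFE4_tam were 354 of 8396, and 189 and 158 of 2903 against parvalbumin nuclei. In both tau pairs, 47 higher and 3 lower of 4249 became 23 and 8 of 3126 with Sst at least 5. They became 7 and 15 of 1140 without microglia marker UMIs and 1 and 0 of 486 with at least 100 UMIs. The heat shock median of the APOE3 tau pair was 0.69 without microglia marker UMIs. The MHC class I median of that pair was 3.49 with Sst at least 5 and 2.01 with no mitochondrial limit, against 2.73. Each of these class I medians rested on 3 genes. Genes entered by UMIs summed over both libraries, so a gene high in TAFE3_oil could enter through that library. The main value of 2.73 equalled the B2m ratio, which was 1.93 (−0.19 to 5.11) without the TAFE3_oil nucleus with vascular RNA. The smaller gates test fewer genes in fewer nuclei; other causes were not tested.

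Shares of GABA nuclei (FE3, FE4, TAFE3_oil, TAFE3_tam, TAFE4_oil, TAFE4_tam) depended on the gate. With Sst at least 5 they were 9.06, 11.6, 9.03, 11.8, 7.37 and 11.5%, and with Sst at least 2 15.8, 18.8, 13.5 and 18.7% in the TAFE libraries. Without microglia marker UMIs they were 7.31, 10.5, 2.79, 4.55, 1.15 and 3.18%, and thinned 20.8, 22.4, 24.3, 23.9, 23.7 and 24.8%. The strict gate gave 6.35% in FE3 and 8.57, 19.6, 20 and 18.5% in the TAFE libraries, and at most 1% mitochondrial UMIs gave 2.22% in FE3. Pairs were not run under these last 2 gates, which left under 10 members in a library. The members without a microglia UMI, the limit on glial UMIs and the ratios without 1 nucleus were added after seeing the data. No paired analysis was possible because each group holds 1 library, so groups share only the replicate number 1; a fit over the 6 libraries with APOE allele as a term was not run.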
